A study of Homo sapiens with 2 samples.

Results

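The MTRNR2L genes are nuclear copies of MT-RNR2, the mitochondrial gene of the large ribosomal RNA. They carry all or part of the stretch that holds the open reading frame of the peptide humanin. MTND2P28 is a nuclear pseudogene of MT-ND2, which encodes a subunit of respiratory complex I. The 8 MTRNR2L genes and MTND2P28 were selected by gene symbol with the CPM of both libraries and their ratio in view, and make up 9 of the 16424 genes with deposited values. Of the 13 MTRNR2L genes named in GENCODE v29, 8 were listed. Of the 37 genes of the mitochondrial chromosome, 0 were listed. Since measured values were known at the choice, levels and ratios of these 9 genes are given as a description, without a test.

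The study asked which signals M2BPGi regulates in hepatocellular carcinoma cells. M2BPGi is the glycan isomer of Mac-2-binding protein that the lectin WFA binds, a serum marker of liver fibrosis. PLC/PRF/5 cells, an established human hepatoma line used as a model of poorly differentiated carcinoma, were kept for 6 h either in medium without M2BPGi (0 µg/ml, non-treated cells, 1 library) or in medium with 3 µg/ml M2BPGi (M2BPGi-treated cells, 1 library). Levels were measured by cap analysis of gene expression (CAGE), a method made for capped RNA. Each tag is taken to mark the 5′ end of 1 transcript, so levels of different genes can be compared without a correction for length.

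Values were tag counts scaled to a fixed library total (CPM), so that 1 tag was worth 0.0416 CPM in the non-treated library and 0.0402 CPM in the other. These steps correspond to totals of 24040209 tags for the non-treated and 24862941 tags for the M2BPGi-treated library. A count of 0 allows up to 3 tags, or 0.125 CPM without and 0.121 CPM with M2BPGi. With 1 library per condition, no difference between the conditions has a replicate check. Intervals given for single genes are exact 95% Clopper-Pearson intervals of the log2 ratio of tag numbers, and they and the limits at 0 cover counting error only. Less RNA per cell and fewer cells with the RNA cannot be told apart in such libraries.

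The label of the cell line was compared with marker genes. All 13 hepatocyte and hepatoma markers were listed, 9 of them with a mean level of 10 CPM or more, and their sum was 4783 CPM without and 4433 CPM with M2BPGi. KRT18, a keratin of simple epithelia, was the most abundant with 1250 and 1592 CPM, and AFP, the fetal counterpart of albumin, had 695 and 566 CPM. ALB, albumin itself, had 8.82 and 7.04 CPM. FGB had 950 and 623 CPM, and SERPINA1 had 671 and 455 CPM. KRT18, APOA2, HNF4A and APOA1 were higher with M2BPGi, and the other hepatocyte and hepatoma markers were lower. Of 6 leukocyte and Kupffer cell markers, 3 were listed, with a sum of 53.2 and 49.7 CPM. LYZ (lysozyme) gave 32.1 and 29.2 CPM and CD68, a Kupffer cell marker, 21.2 and 20.5 CPM. PTPRC, the common leukocyte antigen, was at 0 in both libraries. Of 4 endothelial markers 0 were listed. Of 6 stellate cell and fibroblast markers, 2 were listed, with a sum of 5.20 and 4.18 CPM, led by the collagen gene COL3A1 with 4.53 and 3.42 CPM. The part of these differences in the results was not tested.

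Mitochondria keep a small circular genome, which is transcribed into long RNAs that are then cut into ribosomal RNAs, transfer RNAs and messenger RNAs. Pieces of this genome have been inserted into nuclear chromosomes during evolution, so a short tag can match both the mitochondrial gene and its nuclear copies. Humanin is a short peptide known to protect cells from apoptosis, in part by binding BAX, and its reading frame lies within MT-RNR2.

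All or part of the stretch of the humanin reading frame is what the MTRNR2L genes share. How far it has diverged from MT-RNR2 bears on how easily tags that fall in this stretch can be told apart. The gene values do not show where within a gene its tags fall. The frame covers bases 963 to 1037 of the MT-RNR2 transcript. The sequences are those of GENCODE v29, in lower case, with capitals for bases that differ from MT-RNR2. MTRNR2L2 is shown for the 65 bases that align.
MT-RNR2: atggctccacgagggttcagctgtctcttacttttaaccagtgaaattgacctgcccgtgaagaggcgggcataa
MTRNR2L2: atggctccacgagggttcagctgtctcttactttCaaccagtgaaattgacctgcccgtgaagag
MTRNR2L12: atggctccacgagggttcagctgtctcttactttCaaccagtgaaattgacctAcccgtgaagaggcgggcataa
MTRNR2L8: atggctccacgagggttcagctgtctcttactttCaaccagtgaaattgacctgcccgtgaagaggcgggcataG
MTRNR2L1: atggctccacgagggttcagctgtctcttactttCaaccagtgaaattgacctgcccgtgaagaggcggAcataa
MTRNR2L9: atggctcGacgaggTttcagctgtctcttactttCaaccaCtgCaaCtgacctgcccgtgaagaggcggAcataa
MTRNR2L10: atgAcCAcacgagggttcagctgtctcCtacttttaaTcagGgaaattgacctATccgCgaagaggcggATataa
MTRNR2L2 differs from MT-RNR2 at 1 of these 65 bases. Over the same 65 bases, MTRNR2L8 and MTRNR2L1 also differ at 1 and MTRNR2L12 at 2. MTRNR2L12, MTRNR2L8 and MTRNR2L1 each differ at 2 of 75 bases, MTRNR2L9 at 7 and MTRNR2L10 at 11. MTRNR2L11 and MTRNR2L5, which are not shown, each differ at 9.

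For MTND2P28, the first 60 bases are shown, since CAGE tags come from the start of a transcript. They are identical to the first 60 bases of MT-ND2, with 0 differences.
MTND2P28: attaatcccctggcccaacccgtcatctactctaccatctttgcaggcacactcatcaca
A tag from this stretch would match MT-ND2 and MTND2P28 equally. The transcripts of MTRNR2L12 and MTRNR2L8 also align from base 1 of MT-RNR2, with 4 and 2 differences in the first 30 bases. For the other MTRNR2L genes, the alignment starts further inside MT-RNR2.

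Identities refer to the gene models of GENCODE v29. The models used to count the tags may differ from these in extent and class. Over the whole alignment, MTRNR2L2 was 98.5% identical to MT-RNR2, over 65 columns of an 87-base transcript. MTRNR2L12 was 95.0% identical over 1048 columns and MTRNR2L8 93.0% over 1302 columns. MTRNR2L9 (90.7% over 75 columns), MTRNR2L1 (88.5% over 1552), MTRNR2L10 (80.4%), MTRNR2L11 (79.9%) and MTRNR2L5 (78.2%) were further away. MTND2P28 was 98.4% identical to MT-ND2 over 1042 columns. For the 4 genes with the highest levels, identity to the mitochondrial transcript was thus between 93.0% and 98.5%, and the tags assigned to them may come from either genome. How tags with several matches were treated, and whether mitochondrial ribosomal RNA was among the ribosomal tags that were discarded, is not given in the sources used here. Whether the RNA behind these tags was capped was not tested, so their levels may not compare directly with those of other genes.

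The 4 most abundant members lie on 4 chromosomes by their GENCODE v29 positions. These refer to GRCh38, and the tags may have been mapped to another build. MTRNR2L2 (ENSG00000271043) is on chromosome 5, and MTRNR2L12 (ENSG00000269028) is at chr3:96617188-96618236 on the minus strand. MTRNR2L8 (ENSG00000255823) is at chr11:10507887-10509189 on the minus strand, 307 bases from the gene AMPD3 of the other strand. MTND2P28 (ENSG00000225630) is at chr1:629640-630683 on the plus strand, between other copies of mitochondrial genes. The annotation calls 6 of the 8 MTRNR2L genes protein coding, and MTRNR2L2 and MTRNR2L9 processed pseudogenes.

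MTRNR2L2 had 19144 CPM without and 12655 CPM with M2BPGi, from 460229 and 314644 tags. It ranked 1 of all 16424 genes in both libraries. MTRNR2L12 had 6284 and 4888 CPM, ranks 5 and 4. These 2 copies of the ribosomal RNA gene were thus among the most abundant entries of both libraries, and both were lower in M2BPGi-treated cells.

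MTND2P28 had 2717 CPM without and 1192 CPM with M2BPGi, and its rank changed from 18 to 85. MTRNR2L8 had 833 and 353 CPM, with ranks 131 and 458. Both were lower by a larger factor than MTRNR2L2 and MTRNR2L12, and both moved down the order.

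The other members were far less abundant. MTRNR2L1 had 15.9 CPM without and 10.3 CPM with M2BPGi, MTRNR2L9 had 9.65 and 6.76 CPM, and MTRNR2L10 had 6.86 and 4.75 CPM. MTRNR2L11 had 1 tag in non-treated cells (0.04 CPM) and 0 in M2BPGi-treated cells, and MTRNR2L5 was at 0 in both libraries. Values of MTRNR2L11 and MTRNR2L5 were under the limit of 3 tags. No ratio was computed for them because their mean levels were below 1 CPM. The order of the levels was the same in both libraries from MTRNR2L2 down to MTRNR2L10.

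**Figure D1:**
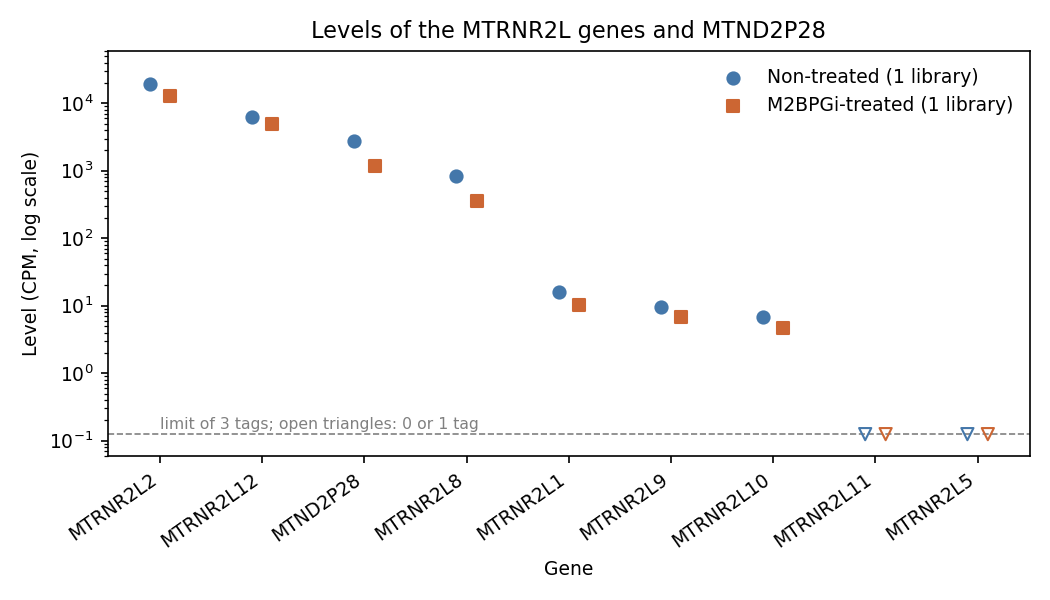
Level of each of the 9 genes in CPM on a log axis, with circles for the non-treated library and squares for the M2BPGi-treated library. Levels run from 19144 CPM for MTRNR2L2 down to MTRNR2L11 and MTRNR2L5, drawn as open triangles at the limit of 3 tags, and the M2BPGi-treated value is the lower one for each gene above that limit.

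Levels were set against identity to the mitochondrial transcript over the copies of mitochondrial genes that were not selected by their values, found by their GENCODE v29 names. Over these 53 other copies, Spearman's rho between identity and mean CPM was 0.86, and over the 25 of them found by symbol it was 0.87. These comparisons were added after the data were seen. They are correlations across genes, which are not independent replicates and share both libraries, and the aligned stretches differ in place and length.

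**Figure D2:**
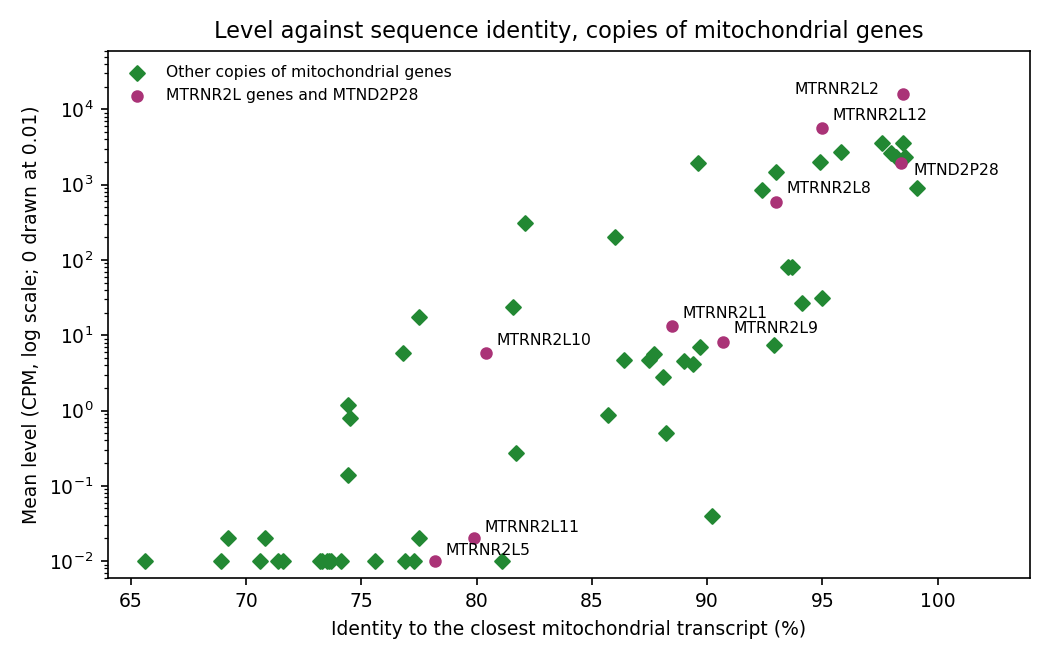
Mean CPM of both libraries on a log axis against percent identity to the closest mitochondrial transcript, 1 point per copy for 62 copies, with 0 CPM drawn at 0.01. Over the 53 copies other than the members, Spearman's rho is 0.86.

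Values of M2BPGi-treated cells were set against those of non-treated cells as a log2 ratio after 1 CPM was added to both values, a pseudocount that makes differences of low genes look smaller. It covered the 13724 genes with a mean level of 1 CPM or more. Of the 9 members, 7 passed this filter. The log2 ratio of MTRNR2L8 was -1.24 (interval -1.28 to -1.20), which is 57.7% lower in M2BPGi-treated cells. That of MTND2P28 was -1.19 (interval -1.21 to -1.17), or 56.1% lower. Counted from the lowest ratio of all genes tested, they ranked 27 and 31.

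MTRNR2L2 had a log2 ratio of -0.60 (interval -0.60 to -0.59), 33.9% lower, and MTRNR2L12 of -0.36 (interval -0.37 to -0.35), 22.2% lower. The ratio of MTRNR2L1 was -0.58 (interval -0.86 to -0.39), that of MTRNR2L9 -0.46 (interval -0.81 to -0.22) and that of MTRNR2L10 -0.45 (interval -0.89 to -0.18).

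Of the 7 members tested, 2 were lower by 2-fold or more with M2BPGi, beside 59 of all 13724 genes tested (0.43%), and 0 were at least 2-fold higher, beside 33 of all genes (0.24%). At a 1.5-fold threshold, 3 members were lower (MTRNR2L2, MTRNR2L8 and MTND2P28), beside 555 genes (4.04%). MTRNR2L1, 1.54-fold lower by its CPM, missed this threshold through the pseudocount, and MTRNR2L2 no longer passed it (-0.55) once the median over all genes was set to 0. Because the members were chosen with these ratios in view, nothing is read from these shares. All 7 members had a log2 ratio below 0, as had 57.0% of all genes tested, whose median was -0.05 with 95% of values between -0.67 and 0.52. The ratios of MTRNR2L8 and MTND2P28 lay outside that range and those of the remaining members inside it.

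Abundant genes less often had a ratio below 0. Among the 1924 genes with a mean level of 100 CPM or more, the median log2 ratio was 0.10, 37.4% were lower, and 4 were at least 2-fold lower (0.208%). These 4 genes were MTRNR2L8, MTND2P28, the neighbouring copy MTND1P23 with a log2 ratio of -1.14, and NEAT1, a nuclear long noncoding RNA, with 272 and 130 CPM and a log2 ratio of -1.06. Of these 4 genes, 3 were copies of mitochondrial genes by GENCODE v29 name, beside 17 of all 1924 genes at this level. Of these 3 copies, 2 were members. They were chosen with their ratios in view, so nothing is read from this count. Of the 4 members at this level, MTRNR2L2 at -0.60 also lay below the central 95% of the 1924 genes (-0.56 to 0.55), and MTRNR2L12 at -0.36 did not.

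**Figure D3:**
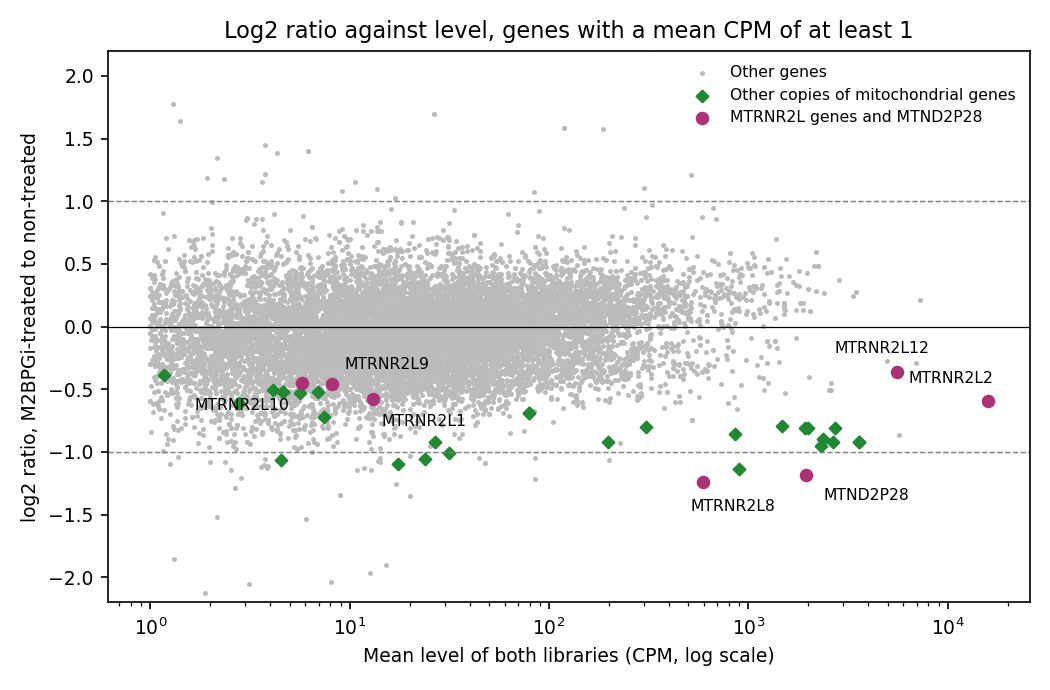
Log2 ratio, with M2BPGi to without, against mean CPM on a log axis for the genes with a mean level of 1 CPM or more, with dashed lines at a 2-fold difference. The 7 members tested and the other copies of mitochondrial genes lie below 0. MTRNR2L8, MTND2P28 and 5 other copies lie below -1. The axis ends at 2.2 in both directions, and 22 genes lie beyond it.

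Among the 4 abundant members, MTRNR2L8 and MTND2P28 had similar ratios, and those of MTRNR2L2 and MTRNR2L12 were closer to 0, although MTRNR2L8 copies the same mitochondrial gene as MTRNR2L2 and MTRNR2L12. The spread of such differences between cultures was not measured.

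The makeup of the MTRNR2L tags shifted accordingly. MTRNR2L2 held 72.8% of them in non-treated cells (exact 95% binomial interval 72.7 to 72.9) and 70.6% in M2BPGi-treated cells (70.5 to 70.8). The share of MTRNR2L12 was 23.9% (23.8 to 24.0) and 27.3% (27.2 to 27.4), and that of MTRNR2L8 was 3.17% (3.13 to 3.21) and 1.97% (1.93 to 2.01). MTRNR2L12 thus took a larger and MTRNR2L2 and MTRNR2L8 a smaller share in M2BPGi-treated cells. The other MTRNR2L genes together held 0.124% and 0.122%.

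Tags of near-identical copies can be assigned to either copy, so sums were computed as well. The 9 members together had 29010 CPM without and 19110 CPM with M2BPGi, that is 2.90% and 1.91% of all tags, with a log2 ratio of -0.60. The 8 MTRNR2L genes had 26293 and 17917 CPM (log2 ratio -0.55, interval -0.56 to -0.55). The sum over the members was thus lower by about the same factor as MTRNR2L2, which gives most of its tags.

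Some values are shared with neighbouring genes. MTRNR2L10 and MTND1P30, a copy of MT-ND1 that lies 113 bases away on the same strand of chromosome X, held identical values (6.86 and 4.75 CPM), so their tags cannot be told apart. MTRNR2L1 on chromosome 17 lies 74 bases from MTND1P15 on the same strand, which was much more abundant with 389 and 223 CPM (log2 ratio -0.80, interval -0.85 to -0.76).

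MTND2P28 is 1 of 7 copies that follow each other on the plus strand of chromosome 1 (chr1:629062-634922, 5861 bases), in the order of the mitochondrial genes they copy and with 97.6% to 99.1% identity to them. MTND1P23 at its start had 1230 CPM without and 559 CPM with M2BPGi, a log2 ratio of -1.14 (interval -1.17 to -1.11). MTND2P28 follows with -1.19. MTCO1P12, listed as hsa-mir-6723, had 3066 and 1584 CPM and a ratio of -0.95 (interval -0.97 to -0.94).

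The copies further along the block had smaller differences. MTCO2P12, listed as RP5-857K21.7, had 3491 and 1842 CPM and a log2 ratio of -0.92 (interval -0.94 to -0.91). MTATP8P1 and MTATP6P1 held identical values of 4701 and 2483 CPM with a ratio of -0.92. MTCO3P12, listed as RP5-857K21.11, had 3067 and 1648 CPM and a ratio of -0.90 (interval -0.91 to -0.88). MTND2P28 had the lowest ratio of the block.

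The other copies were lower in M2BPGi-treated cells as well. The list of other copies of mitochondrial genes, found by symbol, had 25 genes, of which 14 passed the filter. All 14 were lower, beside 57.0% of all genes tested. The 14 include rows of identical values, MTATP8P1 with MTATP6P1 and MTND4LP1 with MTND4P24. They also include MTND1P30, whose values are those of the member MTRNR2L10. At least 2-fold lower were 3 of the 14, beside 0.43% of all genes, and at least 1.5-fold lower were 11, beside 4.04%. Their median log2 ratio was -0.80 beside -0.05 for all genes tested. Of the 14 copies, 10 had a mean level of 10 CPM or more. Their lowest ratios were those of MTND1P23 (-1.14), of MTND6P4 with 42.6 and 20.7 CPM (-1.01, interval -1.20 to -0.89), and of 3 copies at -0.92, MTATP8P1, MTATP6P1 and MTATP8P2, the last with 35.3 and 18.2 CPM.

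The remaining copies of these lay between -0.80 and -0.69. MTND4P12 on chromosome 5 had 3456 and 1978 CPM (log2 ratio -0.80, interval -0.82 to -0.79), and MTND5P11 of the same chromosome had 1868 and 1079 CPM (-0.79, interval -0.81 to -0.77). MTND1P15 stood at -0.80, as given above. MTND4LP1 and MTND4P24 on chromosome X held identical values of 98.4 and 60.5 CPM (-0.69, interval -0.80 to -0.61). The ratios of MTRNR2L2 and MTRNR2L12 were closer to 0 than those of all 10 copies, and those of MTRNR2L8 and MTND2P28 further from 0.

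The GENCODE v29 names add 29 copies under other symbols, a search added after the data were seen. By these names 63 copies were listed and 36 passed the filter. Without the members, 29 copies passed, and all 29, or 26 with rows of identical values counted once, had a log2 ratio below 0, beside 57.0% of all genes tested. Both counts include MTND1P30, whose values are those of the member MTRNR2L10. With the pseudocount of 1 CPM, which brings low genes closer to 0, the ratios of the 29 copies ran from -1.14 to -0.39. The sum over the 63 copies was 61703 CPM without and 36790 CPM with M2BPGi, or 6.17% and 3.68% of all tags. With rows of identical values counted once, it was 56891 and 34238 CPM.

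Grouped by the mitochondrial gene they copy, the sums differed between the ribosomal RNA and the messenger RNAs. Copies of MT-RNR2, which are the MTRNR2L genes, had a log2 ratio of -0.55. Copies of the messenger RNAs formed 11 groups, with adjacent overlapping genes joined, and all 11 had a lower ratio, from -1.19 for MT-ND2 to -0.79 for MT-ND5. The ratio of the MT-RNR2 copies rests on MTRNR2L2 and MTRNR2L12, while MTRNR2L8 at -1.24 lay below the sum of every messenger RNA group.

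In the order of the mitochondrial genome, MT-ND1 copies summed to 1627 and 787 CPM (log2 ratio -1.05, interval -1.07 to -1.02) and MT-ND2 copies to 2749 and 1207 CPM (-1.19, interval -1.21 to -1.17). MTND2P28 gives nearly all tags of the MT-ND2 group. Copies of MT-CO1 stood at -0.95, of MT-CO2 and of MT-ATP8 and MT-ATP6 at -0.92, of MT-CO3 at -0.90, of MT-ND3 and of MT-ND4L and MT-ND4 at -0.81, and of MT-ND5 at -0.79. From MT-ND2 to MT-ND5 the sums came closer to 0 along the genome or stayed level. The sums from MT-ND2 to MT-CO3 rest mostly on copies on chromosome 1, and those from MT-ND3 to MT-ND5 mostly on copies on chromosome 5. Place in the mitochondrial genome and nuclear location of the copies thus cannot be told apart here. The MT-ND2 sum also rests on a member chosen with its ratio in view. Copies of MT-ND6, the messenger RNA of the other strand, followed with 49.1 and 23.2 CPM (-1.05, interval -1.22 to -0.93), and then those of MT-CYB with -0.87 (interval -0.90 to -0.85), so the sums did not come closer to 0 beyond MT-ND5.

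**Figure D4:**
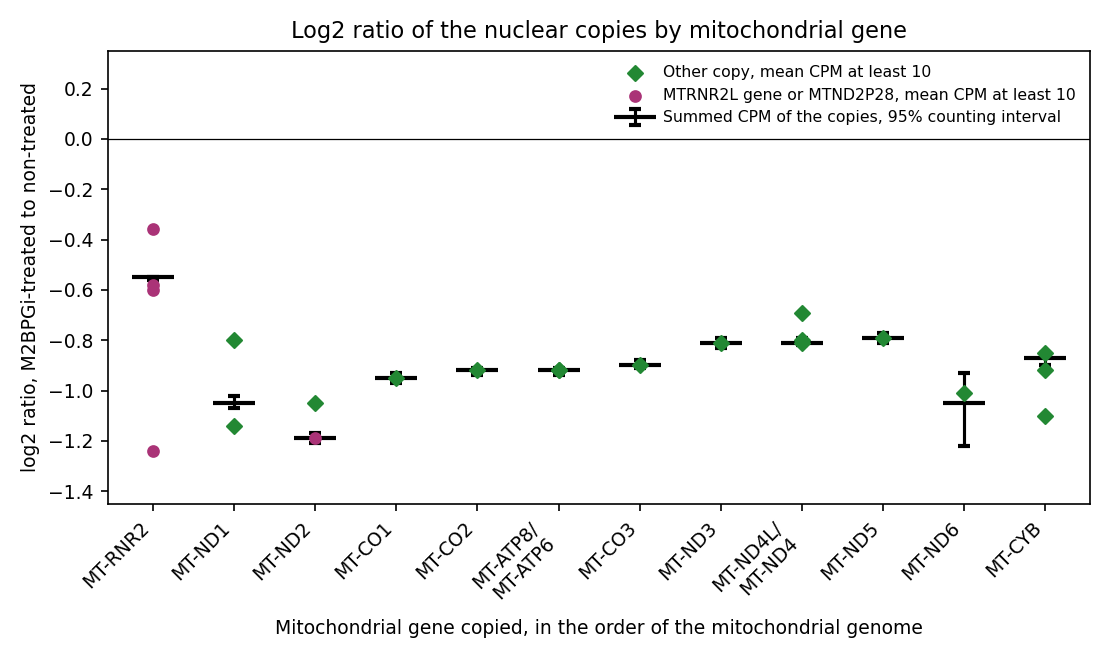
Log2 ratio, with M2BPGi to without, for copies of each mitochondrial gene, in the order of the mitochondrial genome. Black bars show the summed CPM of the copies with the 95% counting interval, and points show single copies with a mean level of 10 CPM or more, with rows of identical values drawn once. The sum of the MT-RNR2 copies stands at -0.55 and those of the 11 other groups between -1.19 and -0.79.

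Nuclear genes for mitochondrial transcription and RNA handling were compared as a fixed list, which also holds factors that copy or maintain mitochondrial DNA and the regulators of such genes. Of 48 listed genes, 47 passed the filter, 22 of them higher and 25 lower with M2BPGi, beside 57.0% lower of all genes tested. The median log2 ratio was -0.04 beside -0.05 for all genes. At a 2-fold threshold 0 were lower and 0 higher, beside 0.43% and 0.24% of all genes. At 1.5-fold 1 was lower, beside 4.04%. The median of the list was 0.01 once the median over all genes was set to 0.

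Among genes of this list with a mean level of 10 CPM or more, the lowest ratios were those of POLG, the catalytic subunit of the mitochondrial DNA polymerase, with 65.6 and 47.7 CPM (-0.45, interval -0.57 to -0.35), of MTERFD3, a member of the mitochondrial termination factor family, with 23.5 and 18.3 CPM (-0.34), and of MGME1, a mitochondrial exonuclease, with 24.3 and 19.4 CPM (-0.31). The highest were those of GABPB1, a subunit of the nuclear respiratory factor GABP, with 18.6 and 25.5 CPM (0.43, interval 0.28 to 0.63), of SSBP1, the mitochondrial single-stranded DNA-binding protein, with 608 and 772 CPM (0.34), and of NGRN, a factor for the large mitochondrial ribosomal RNA, with 218 and 274 CPM (0.33). The lowest ratio of the list was that of MTPAP, the mitochondrial poly(A) polymerase, at a lower level, with 7.82 and 4.67 CPM (-0.64, interval -1.09 to -0.40).

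Genes of proteins that bind humanin or form its receptors were the other list. Of its 10 genes, 6 were listed and all 6 passed the filter, 2 higher and 4 lower, beside 57.0% lower of all genes tested. The median log2 ratio was -0.17 beside -0.05. At a 2-fold threshold 0 were lower and 0 higher, beside 0.43% and 0.24% of all genes. IL6ST, the gp130 subunit of the trimeric humanin receptor, had 81.5 and 54.4 CPM (-0.57, interval -0.68 to -0.48). TRIM11, a ubiquitin ligase that binds humanin, had 12.3 and 9.17 CPM (-0.38, interval -0.68 to -0.17).

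BAX and BID were the genes of that list with ratios above 0. BAX, the pore-forming protein that humanin binds, had 197 and 209 CPM (0.09, interval 0.03 to 0.15), and BID, which activates BAX, had 13.9 and 17.5 CPM (0.31, interval 0.12 to 0.53). IL27RA, another receptor subunit, had 5.24 and 4.06 CPM (-0.30), and BCL2L11, which encodes the apoptosis protein BIM, had 2.37 and 2.29 CPM (-0.03).

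**Figure D5:**
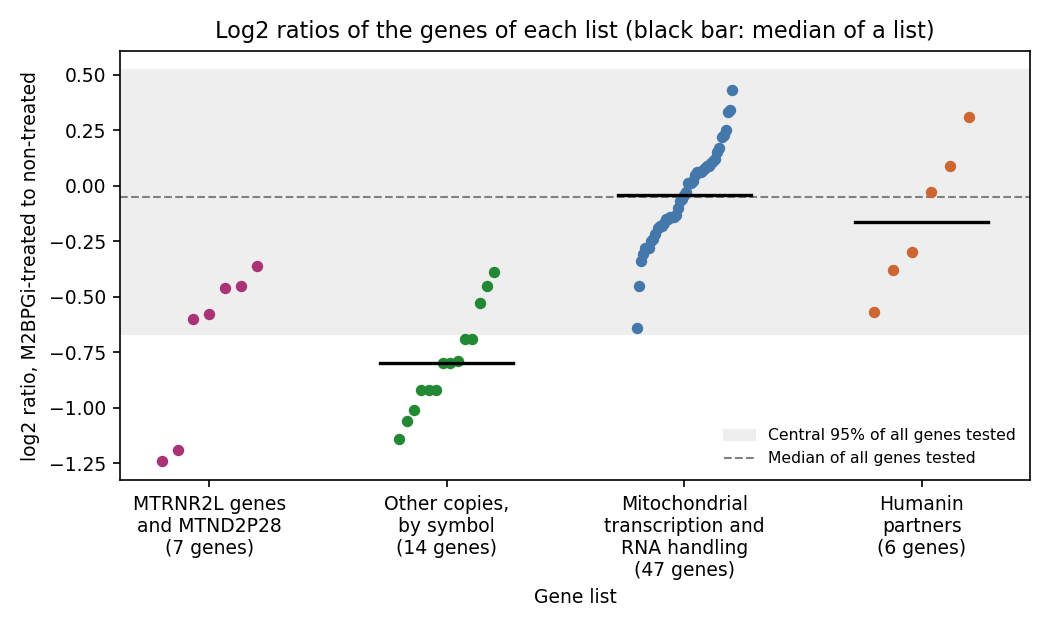
Log2 ratios of single genes in 4 groups, with 1 point per gene that passed the filter, black bars for the medians of the 3 lists, a dashed line for the median of all genes tested (-0.05) and a grey band for their central 95% (-0.67 to 0.52). The median of the other copies lies at -0.80, that of the mitochondrial transcription and RNA handling genes at -0.04 and that of the humanin partners at -0.17.

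To show which other genes had ratios like those of the members, the 1907 genes with a mean level of 100 CPM or more outside the copies were ordered by distance of their log2 ratio, and the 3 nearest were taken for each member. The likeness is that of 1 ratio from 2 libraries. For both MTRNR2L8 and MTND2P28 they were NEAT1 (-1.06), the spliceosomal RNA gene RNU1-2 with 299 and 156 CPM (-0.93), and MALAT1, another nuclear long noncoding RNA, with 7357 and 4042 CPM (-0.86). All 3 ratios were closer to 0 than those of these members.

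For MTRNR2L2 the 3 nearest genes were SLC39A7, VMP1 and PRPF4B at -0.60, and for MTRNR2L12 they were PRDX4, M6PR and DHX15 at -0.36, so ratios of this size also occurred among abundant nuclear genes. The ratios of the 3 less abundant members tested are brought closer to 0 by the pseudocount (log2 ratios of the CPM itself were -0.62 for MTRNR2L1, -0.51 for MTRNR2L9 and -0.53 for MTRNR2L10), and those of the genes matched to them hardly are. On the ratios with the pseudocount, the nearest for MTRNR2L1 were ESYT1 and SLC12A2 at -0.58 and ATP6V0A1 at -0.57, for MTRNR2L9 they were RER1, YIPF3 and BSG at -0.46, and for MTRNR2L10 they were PPIB, DYNC1H1 and AL359973.1 at -0.45.

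Genes next to the members in the order of mean CPM were looked up for comparison. Below MTRNR2L2 came the ribosomal protein gene RPS21 with 6758 and 7827 CPM (log2 ratio 0.21). MTRNR2L12 stood between MALAT1 (-0.86) and the neurotensin gene NTS with 5410 and 4460 CPM (-0.28). MTND2P28 stood between the ribosomal protein gene RPS7 with 1675 and 2251 CPM (0.43) and CTB-36O1.3, a copy of MT-ND3, with 2437 and 1392 CPM (-0.81).

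MTRNR2L8 stood between RP4-604A21.1 with 505 and 682 CPM (0.43) and the peroxiredoxin gene PRDX4 with 661 and 514 CPM (-0.36). The neighbours of the less abundant members were MOCS3 (-0.09) and GPR125 (-0.32) for MTRNR2L1, FBXL18 (-0.20) and SHC2 (0.03) for MTRNR2L9, and MTND1P30 and SCFD2 (-0.17) for MTRNR2L10. MALAT1 was the only one of these neighbours with a lower ratio than the member beside it, and MTND1P30 had the same ratio as MTRNR2L10.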

How the data were processed

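CAGE tags of PLC/PRF/5 cells were measured in 1 non-treated and 1 M2BPGi-treated library. The authors removed tags of ribosomal RNA and those with an unread base before mapping, and deposited gene values as CPM, rounded to 2 decimals. The submitters' processing notes name hg19, BWA and HISAT2, while the study's methods name a mouse genome. The identifiers are human. Within a tolerance of 0.005 CPM, 100% of values above 0 were multiples of 1 tag (0.0416 and 0.0402 CPM). This rounding is coarser than the 0.1-tag tolerance set for reading whole tags back, and too few low values of the non-treated library met it, so a planned binomial test and TMM scaling were not run. The nearest tag numbers were used for tag numbers, shares and counting intervals. Log2 ratios used a pseudocount of 1 CPM and a mean CPM of at least 1. KIAA0391, listed in 2 rows of equal values, was counted once. Of the 9 identifiers of the members, 9 were found in GENCODE v29, whose transcripts were aligned to the mitochondrial transcripts with BLAST+ 2.17.0 (E-value up to 1e-05). Python 3.11.15, scipy 1.17.1, pandas 2.3.3 and numpy 2.4.6 were used, and the scripts were tested on simulated data.

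The genes named are the 9 members, other copies found by symbol that average 10 CPM or more, the 3 highest and 3 lowest of each list at that level, the 3 nearest genes in log2 ratio and the neighbours in level. Further names are those of some cell type markers and of genes beside a member in the genome. Named after their values were seen were KRT18, AFP, ALB, FGB, SERPINA1, APOA2, HNF4A, APOA1, LYZ, CD68, PTPRC, COL3A1, AMPD3, IL27RA, BCL2L11 and MTPAP. The same holds for the genes of the chromosome 1 block under other symbols. Members and lists were chosen with earlier results of these data known. Alternatives were other pseudocounts, filters, scalings and a 1.5-fold threshold.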

Additional observations from a re-analysis of the deposited data

How the results depend on the processing

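After a rescaling that sets the median over all genes to 0, MTRNR2L2 was at -0.55, which no longer passes a 1.5-fold threshold, MTRNR2L12 at -0.31, MTND2P28 at -1.14, MTRNR2L8 at -1.19, the sum of the members at -0.55 and the sum of the 34 copies of mitochondrial genes found by symbol at -0.65 (-0.70 as deposited), while the median of the nuclear genes for mitochondrial transcription and RNA handling changed sign to 0.01. With totals without the copies, these log2 ratios, in the same order, were -0.63, -0.40, -1.23, -1.28, -0.64 and -0.74. Both shifts follow from the rescaling, which moves every gene by nearly the same amount. In alternatives added after the data were seen, the sum of the members was -0.61 without MTRNR2L2, and the sum of the copies found by symbol was -0.68 with rows of identical values counted once and -0.75 with the 63 copies found by GENCODE v29 name. The number of genes at least 2-fold lower was 162 with a pseudocount of 0.1 CPM, 21 with 5 CPM and 28 with a filter at a mean of 10 CPM, and the number at least 2-fold higher was 53, 18 and 19. At a 1.5-fold threshold, the numbers were 555 lower and 219 higher. A higher pseudocount shrinks the ratios of low genes, and a higher filter leaves fewer genes without altering the ratio of a gene. The other 65 recomputed values stayed within the counting interval, or within 1.5 times the main count. With a filter at a mean of 10 CPM, MTRNR2L9 and MTRNR2L10 had no value. The planned TMM scaling was not run. No paired analysis was possible because there is a single library on either side, and neither can be left out. Depth limits MTRNR2L11 and MTRNR2L5, whose levels were under 3 tags, and MTRNR2L1, MTRNR2L9 and MTRNR2L10, whose intervals are wide.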
